A study of Mus musculus with 2 samples.

Results

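Primitive streak cells of mouse embryos at embryonic day 7 (E7) were taken from single-cell RNA sequencing of 2 libraries, 1 from control embryos and 1 from embryos that lacked *Yap1* in the epiblast (*Yap1* cKO). A cell was counted as a primitive streak (PS) cell when it held at least 2 UMIs of *T* and *Mixl1* together, at least 2 UMIs of *Pou5f1*, and few or no transcripts of later or neighbouring lineages. A UMI (unique molecular identifier) stands for 1 captured transcript molecule. The limits on other lineages were under 3 UMIs of *Mesp1* and *Mesp2* together, under 3 UMIs of *Igfbp3*, and under 5 UMIs in total of each of 4 groups. These groups were *Foxf1*, *Hand1* and *Tdo2*, then *Tal1*, *Lmo2*, *Etv2* and *Fli1*, then *Noto*, *Chrd*, *Foxj1* and *Cer1*, and last *Elf5*, *Wnt7b* and *Esrrb*. The summed level of *Ttr*, *Afp*, *Apoa1*, *Rbp4* and *Apoa4* had to stay under 200 CPM, where CPM is the UMIs of a gene divided by all UMIs of the same cells and scaled to 1000000. The members were thus chosen by the measured UMIs of these genes, which support nothing below. The rule found 80 PS cells among 1655 cells with at least 5000 detected genes and at most 10% mitochondrial UMIs. Of these, 25 were among 791 cells of the control library and 55 among 864 cells of the *Yap1* cKO library.

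The *Yap1* cKO embryos carried Sox2-Cre and a floxed *Yap1* gene on both chromosomes, and the controls carried Sox2-Cre with 1 floxed and 1 intact copy. The sample labels call the controls wild type, and the mouse methods of the study also describe floxed littermates without Cre, so the control genotype is not given in the same way throughout. Sox2-Cre recombines in the epiblast and what derives from it, which includes the streak. A pool of 4 control embryos and a pool of 3 *Yap1* cKO embryos each gave 1 droplet library that reads the 3′ ends of transcripts, so no test was made between the genotypes, and the intervals given here cover counting error only.

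The primitive streak is the site where epiblast cells leave the epithelium to form mesoderm and definitive endoderm. Nodal, Wnt and BMP signals induce it at the posterior side of the embryo, cells there switch on *T* (Brachyury), *Mixl1* and *Eomes*, and its anterior part also expresses *Foxa2* and *Gsc*. YAP1 is the transcriptional coactivator that the Hippo kinases hold in check, and it acts on DNA through the TEAD factors.

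The PS cells of the control library held 1798036 UMIs in all, from 25858 to 115108 per cell with a median of 70291. Those of the *Yap1* cKO library held 5326436 UMIs, from 47334 to 272698 per cell with a median of 77897. Mitochondrial genes took a median of 0.710% of the UMIs of a control PS cell and 0.781% of a *Yap1* cKO PS cell, and ribosomal protein genes 22.8% and 22.7%. Both labels give the sex as female, yet Y-linked transcripts were present. By these transcripts and *Xist*, the control PS cells were 12 Y-bearing, 11 *Xist*-bearing and 2 neither, and the *Yap1* cKO PS cells 8 Y-bearing and 47 *Xist*-bearing. The 8 Y-bearing *Yap1* cKO cells were deep, with a median of 163760 UMIs, against 77139 in the *Xist*-bearing cells of that library. The libraries shared 2 cell barcodes, neither of them a PS cell. The rule has no doublet step. The caller scrublet marked 4 of 791 control and 19 of 864 *Yap1* cKO cells, with 0 PS cells among them, and so few calls in the control say little.

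Among cells that met every other limit, 25 of 270 control cells reached the *T* and *Mixl1* limit (9.26%, exact binomial 95% interval 6.08 to 13.4), and 55 of 273 *Yap1* cKO cells did (20.1%, 15.6 to 25.4). Just outside the limit, 14 control and 27 *Yap1* cKO cells held 1 UMI of *T* or *Mixl1*. Just inside it, 2 control and 15 *Yap1* cKO cells held 2 UMIs. When the rule was applied to cells thinned to 30000 UMIs each, it kept 25 control and 31 *Yap1* cKO cells. Thinning lowers the UMIs of the genes that set cells aside as well as those of *T* and *Mixl1*, and the part of depth in the shares was not tested. The *Mesp1* and *Mesp2* limit alone set aside 38 control and 51 *Yap1* cKO cells, with 3 cells of each library at exactly 3 UMIs, while 1 control and 3 *Yap1* cKO PS cells held 2 UMIs. The *Igfbp3* limit alone set aside 4 control and 3 *Yap1* cKO cells, and 2 control and 6 *Yap1* cKO PS cells held 2 UMIs of *Igfbp3*. The limit on *Noto*, *Chrd*, *Foxj1* and *Cer1* alone set aside more control (19) than *Yap1* cKO (14) cells. No alternative left this limit out. The share of PS cells is thus a description of where the limits fall in each library.

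Of the genes that chose the cells, *T*, the T-box factor of the streak and early mesoderm, stood at 83.4 CPM in control against 51.8 CPM in *Yap1* cKO PS cells. *Mixl1*, a homeobox factor of mesendoderm, stood at 63.4 and 37.2 CPM. The median cell held 3 UMIs of *T* and 2 of *Mixl1* in both libraries, and the cells ran from 0 to 21 UMIs of *T* and 0 to 23 of *Mixl1* in the control, and from 0 to 23 and 0 to 38 in the *Yap1* cKO. Both genes were seen in 18 of 25 control cells and 40 of 55 *Yap1* cKO cells, *T* alone in 3 and 11, and *Mixl1* alone in 4 and 4. *Pou5f1*, the pluripotency factor that streak cells still carry, stood at 103 and 85.8 CPM.

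**Figure D1:**
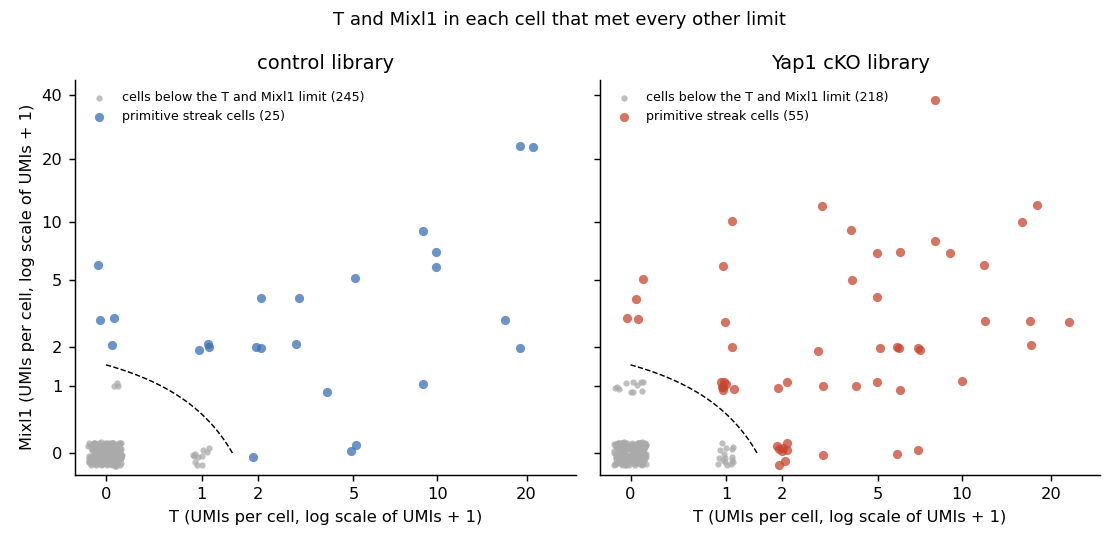
UMIs of *T* (x axis) and *Mixl1* (y axis) in each cell that met every other limit, both on a log scale of UMIs + 1, in the control (left) and *Yap1* cKO (right) library, with points moved slightly at random so that they do not hide each other. The larger points are the 25 control and 55 *Yap1* cKO PS cells, most of which lie away from both axes because 18 and 40 of them hold both genes, and the other points are the 245 and 218 cells under the limit.

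The label was checked with genes that the rule did not use, against the 245 control and 218 *Yap1* cKO cells that met every limit but that on *T* and *Mixl1*, called below-limit cells here. Since *T* and *Mixl1* parted these cells, the comparison is a description. *Fst*, which codes for follistatin, an extracellular inhibitor of activin and BMP, stood at 549 CPM (516 to 585) in control PS cells, with a Poisson 95% interval in parentheses, or 10.8 (9.87 to 11.8) times the below-limit cells. In the *Yap1* cKO it stood at 314 CPM (299 to 329.7), or 3.87 (3.62 to 4.15) times the below-limit cells. *Fgf8*, the FGF ligand that cells need to move away from the streak, was 6.05 times the below-limit level in the control and 3.78 times in the *Yap1* cKO. *Wnt8a*, a Wnt ligand of the streak, was 6.17 and 6.16 times that level. All 3 markers outside the rule were higher in the PS cells than in the below-limit cells of both libraries. Against the *Mesp* cells described further on, *Fst* stood at 1.48 times in the control but at 0.734 of their level in the *Yap1* cKO, so it does not set the PS cells apart from them in both libraries.

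Around the limit, control cells with 0, 1 and 2 UMIs of *T* and *Mixl1* held 44.0, 162 and 659 CPM of *Fst*, the last from only 2 cells. The *Yap1* cKO cells with 0, 1 and 2 UMIs held 68.7, 173 and 313 CPM. Further inside, cells with 3 to 4, 5 to 9 and at least 10 UMIs held 345, 693 and 583 CPM in the control, from 7, 7 and 9 cells, and 236, 358 and 322 CPM in the *Yap1* cKO, from 9, 15 and 16 cells. The cells with 1 UMI thus already lay between the populations, and *Fst* went up and down with no steady rise inside the limit.

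After each cell was thinned to 30000 UMIs, which left out 1 control PS cell, *Fst* had a UMI in 24 of 24 control and 53 of 55 *Yap1* cKO PS cells. In extraembryonic ectoderm cells, which should lack it and in which it stands for free RNA, it had a UMI in 1.67% of 180 control cells and 3.92% of 102 *Yap1* cKO cells. The median depth before thinning was 70291 and 77897 UMIs in PS cells and 84348 and 111988 UMIs in extraembryonic ectoderm cells. *Wnt8a* was seen in 41.7% of thinned control and 40% of thinned *Yap1* cKO PS cells (64% and 70.9% before thinning), and in 0 of 180 and 0 of 102 thinned extraembryonic ectoderm cells, which allows shares of up to 2.03% and 3.55% (exact binomial). Before thinning it had a UMI in 0 of 185 and 1 of 105 of these cells. Both genes were far above the free RNA level.

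Transcripts of blood, endothelial and extraembryonic ectoderm markers were rare in the PS cells. Of 11 blood and endothelial markers, 8 had no UMI in control and 6 none in *Yap1* cKO PS cells, *Gata1*, *Cdh5* and *Hbb-bh1* among them, and their sum was 8.90 and 5.26 CPM, most of it *Runx1*. The 11 extraembryonic ectoderm markers outside the rule summed to 19.5 CPM in the control against 23.5 CPM in the *Yap1* cKO, with *Ets2* the most abundant in the control and *Cdx2* in the *Yap1* cKO, and 4 and 1 of them at 0. The 15 visceral endoderm markers summed to 160.2 and 138 CPM, and *Apoe* alone gave 213 of 288 control and 448 of 737 *Yap1* cKO UMIs, while *Hnf4a* and *Foxa1* were at 0 in both libraries. The 10 neural and anterior ectoderm markers summed to 227 and 231 CPM. Of their UMIs, *Pou3f1*, which is also expressed in the below-limit cells, gave 181 of 409 in the control and 602 of 1228 in the *Yap1* cKO. *Pax6* and *Sox1* were at 0 in both. The 14 genes that dissociation of tissue can induce summed to 208 CPM in control against 162 CPM in *Yap1* cKO PS cells, and *Ier2* was the most abundant.

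Across the transcriptome, 9772 genes had at least 100 UMIs over PS and below-limit cells in each library. Of these, 77 (0.788%) were at least 2 times higher in PS cells in both libraries and 115 (1.18%) at most 1/2 in both. The 10 furthest above, ranked by the library with the smaller difference, were *Sp5*, *Pcdh7*, *Gsc*, *Meis2*, *Ntn1*, *Wnt8a*, *Apln*, *Grrp1*, *Frzb* and *Adamts9*. *Sp5*, a zinc finger factor that Wnt and beta-catenin switch on, led with 77.0 (51.3 to 119.9) times in the control and 26 (17.9 to 39.0) times in the *Yap1* cKO. *Pcdh7*, a protocadherin, was 23.4 and 20.1 times higher, and *Gsc*, the homeobox gene of the anterior streak, 13.1 and 8.84 times. Against the *Mesp* cells described further on, *Sp5* stood at 0.474 and 0.218 of their level and *Gsc* at 0.690 and 1.03. In the control, most of the 10, *Sp5* among them, had under 100 UMIs in the below-limit cells and reached the minimum through the PS cells, so the order is a description that the minimum helps to set. *Frzb*, a secreted Wnt antagonist, was 12.6 and 5.31 times higher, and *Apln*, a secreted peptide, 8.27 and 5.92 times.

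The 10 furthest below were *Gm13598*, *Nxph1*, *Gm15862*, *Gria1*, *Hs3st5*, *Slc35d3*, *Acpp*, *Kcnh8*, *Lypd6b* and *Tas1r1*. All 10 had under 100 UMIs in the PS cells of each library and reached the minimum through the below-limit cells, so their place is set in part by that minimum. *Nxph1*, which codes for a ligand of neurexins, had 196 UMIs in below-limit cells of the control and 110 in those of the *Yap1* cKO, and 0 and 2 in the PS cells. *Gria1*, an AMPA receptor subunit, had 125 and 98 UMIs in below-limit cells and 0 and 4 in PS cells, and *Hs3st5*, a heparan sulfate sulfotransferase, 505 and 453 in below-limit and 2 and 19 in PS cells.

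By pathway, ligands and their targets were among the genes that were higher in PS cells. Of 22 Wnt genes with enough UMIs, 6 were at least 2 times higher in both libraries (against 0.788% of all genes) and 0 lower (against 1.18%), and the groups that follow are given beside the same shares. They were the ligands *Wnt3* (6.37 times in the control, 4.81 times in the *Yap1* cKO) and *Wnt8a*, the Wnt amplifier *Rspo3* (4.08 and 2.38 times), and the targets *Axin2* (6.73 and 3.89 times), *Nkd1* and *Sp5*. Of these, *Wnt8a*, *Nkd1* and *Sp5* reached 100 UMIs in the control only with those of the PS cells, so the count is a description. Of 14 Nodal pathway genes, *Nodal* itself (3.74 and 2.16 times) and its co-receptor *Tdgf1* (4.46 and 2.58 times) were higher and 0 lower. Of 13 BMP pathway genes, the inhibitors *Fst* and *Smad6* were higher and 0 lower. Of 16 FGF and ERK genes, *Fgf8* was higher and *Dusp4*, an ERK phosphatase, lower. *Smad6* and *Dusp4* likewise reached the minimum in the control through the population in which they were higher. *Eomes*, the T-box factor of mesendoderm, was 8.20 and 4.71 times higher. Against the *Mesp* cells, *Sp5*, *Wnt3*, *Rspo3*, *Axin2*, *Nkd1* and *Tdgf1* were lower in PS cells of both libraries, so they do not mark PS cells against *Mesp* cells. *Eomes* stood at 1.16 and 0.827 of the *Mesp* level. *Nodal* (3.01 and 2.18 times) and *Fgf8* (1.57 and 1.62 times) were higher than in *Mesp* cells.

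Most epithelial genes stood somewhat below the below-limit level. Their sum was 1185 CPM in PS cells and 1622 CPM in below-limit cells of the control, and 1208 and 1548 CPM in the *Yap1* cKO. Of 15 with enough UMIs, the junction gene *Ocln* and the polarity gene *Crb3* were at most 1/2 of the below-limit level in both libraries (against 1.18% of all genes) and 0 were 2 times higher (against 0.788%). *Ocln* and *Crb3* reached the minimum through the below-limit cells, so this count is not read as a result. The keratin gene *Krt18* stood at 0.364 of it in the control against 0.587 in the *Yap1* cKO, the claudin gene *Cldn7* at 0.542 and 0.654, and *Epcam*, an epithelial adhesion gene and the most abundant of the list, at 0.763 and 0.792. *Cdh1* (E-cadherin) stood at 0.768 of it in the control against 0.905 in the *Yap1* cKO, and the laminin gene *Lamb1* lay above it, at 1.67 and 1.48 times. Of 7 mesenchymal genes, *Snai1*, a repressor of *Cdh1* (5.84 and 4.09 times), and *Cdh2*, N-cadherin (2.92 and 2.0 times), were higher (against 0.788%), and *Snai1* reached the minimum only with the UMIs of the PS cells. Of 24 pluripotency and epiblast genes, *Nanog* (3.56 and 2.34 times) and *Tdgf1* were higher in both libraries (against 0.788%). *Sox2* (0.376 and 0.484 of the below-limit level), *Utf1* (0.25 and 0.279), *Pou3f1* (0.266 and 0.337), *Sox3* and *Slc7a3* were lower in both (against 1.18%), of which *Sox2*, *Sox3* and *Slc7a3* reached the minimum in the control through the below-limit cells. *Nanog* and *Sox2* thus lay on opposite sides of the below-limit cells.

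On the other side stood 38 control and 51 *Yap1* cKO cells that met every limit but that on *Mesp1* and *Mesp2*, factors of nascent mesoderm, called *Mesp* cells here. Of 5748 genes, 24 (0.418%) were at least 2 times higher in PS cells than in *Mesp* cells in both libraries and 91 (1.58%) at most 1/2. The nascent and paraxial mesoderm markers tested here, *Lefty2*, *Pdgfra*, *Gata6*, *Snai1*, *Rspo3*, *Dll3* and *Cyp26a1*, were at most 1/2, but in the control each reached the minimum of 100 UMIs only through the *Mesp* cells, so their number is not read as a result. *Lefty2*, a secreted Nodal inhibitor, had 743 UMIs in control *Mesp* cells and 858 in those of the *Yap1* cKO, and 13 and 27 in the PS cells. *Fgf3*, an FGF ligand, had 298 and 335 UMIs in *Mesp* cells and 0 and 10 in PS cells, and *Pdgfra*, the PDGF receptor of mesoderm, 208 and 193 in *Mesp* cells and 4 and 10 in PS cells. The epithelial genes *Cldn6*, *Cldn7* and *Cdh1* and the epiblast genes *Utf1* (6.48 and 5.85 times), *Pou3f1* (5.47 and 4.52 times), *Fgf5*, *Slc7a3* and *Sox2* were higher in PS cells of both libraries. In the control all of these but *Fgf5* had under 100 UMIs in the *Mesp* cells. They reached the minimum only with the UMIs of the PS cells, so their number is not read as a result either.

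Between the genotypes, *Yap1* was read first as a check of the labels. *Yap1* (chr9:7931999-8004596, minus strand, GRCm38) gave 58 UMIs over 21 of 25 control PS cells, or 32.3 CPM (24.5 to 41.7). In the *Yap1* cKO it gave 6 UMIs over 4 of 55 PS cells, or 1.13 CPM (0.413 to 2.45). The ratio of *Yap1* cKO to control was 0.0349 (0.0123 to 0.0807), where the interval is the exact conditional 95% interval, as it is for each ratio below. This went with the labels, as did the below-limit cells (0.0377) and the *Mesp* cells (0.0871). Which exons the floxed allele loses is not given in the sources used here, and a 3′ library counts any transcript that keeps its end. *Wwtr1*, which codes for the YAP1 paralogue TAZ, stood at 21.7 CPM in the control against 19.5 CPM in the *Yap1* cKO, a ratio of 0.900 (0.617 to 1.34).

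Leaving out genes of the rule, *Xist*, *Tsix* and Y-linked genes, 6900 genes had at least 100 UMIs over the PS cells of both libraries. This minimum is a sum, so a gene can reach it through the library in which it is higher. Of these, 131 (1.90%) were at least 1.5 times higher in the *Yap1* cKO and 198 (2.87%) at most 1/1.5 of the control, which is called past the fold here. The median ratio was 0.978, and after division by it the numbers were 167 and 163. At a fold of 2 they were 16 and 20. These numbers describe the pair of libraries, and the gene groups are read against them.

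**Figure D2:**
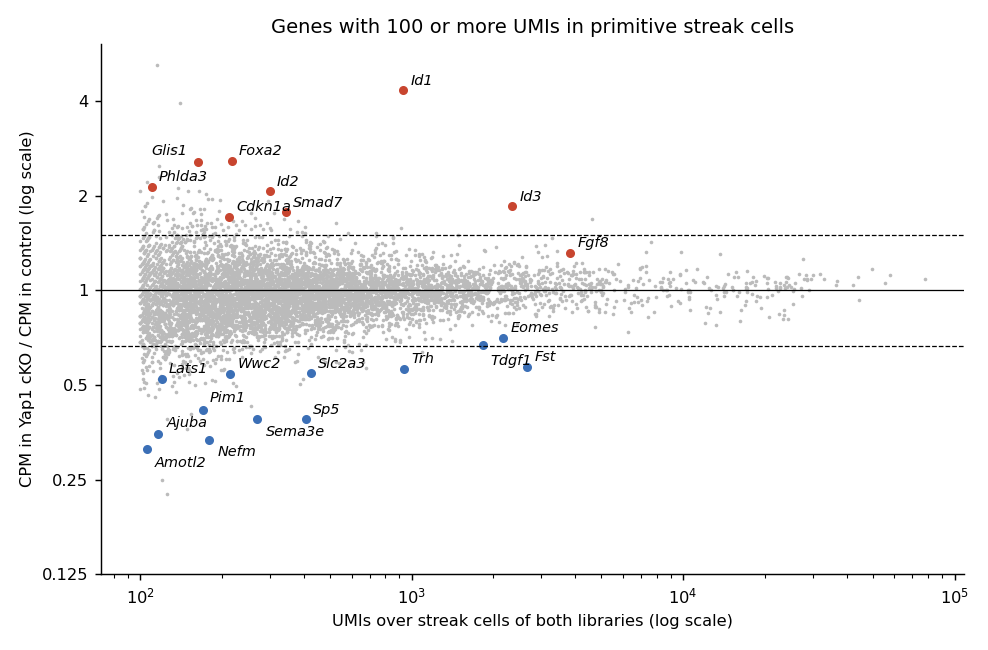
Ratio of the CPM in *Yap1* cKO to control PS cells (y axis, log scale) against the UMIs of the gene over both libraries (x axis, log scale) for genes with at least 100 UMIs, with dashed lines at 1.5 times and 1/1.5. Coloured points carry gene names, and *Id1* at 4.34 stands far above other genes with as many UMIs.

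Among the YAP target and feedback genes, lower levels were more frequent than in the background. Of 10 with enough UMIs, 4 were at most 1/1.5 of the control (against 2.87% of all genes), 0 were 1.5 times higher, and 9 had a ratio below 1, with a median of 0.729 against 0.978 for all genes. *Amotl2* (chr9:102716672-102733418, plus strand), which codes for an angiomotin that holds YAP1 at junctions, had 55 UMIs in control PS cells, or 30.6 CPM (23.0 to 39.8). In the *Yap1* cKO it had 51 UMIs, or 9.57 CPM (7.13 to 12.6), a ratio of 0.313 (0.210 to 0.467). The median cell held 28.5 CPM of *Amotl2* in the control against 5.91 CPM in the *Yap1* cKO, with ranges from 0 to 101 and 0 to 77.8 CPM that overlapped.

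*Ajuba* (chr14:54567472-54577558, minus strand), a LIM protein that restrains the LATS kinases, had 57 UMIs (31.7 CPM) in the control against 59 (11.1 CPM) in the *Yap1* cKO, a ratio of 0.349 (0.239 to 0.512). The other members past the fold were *Wwc2*, a relative of KIBRA upstream of LATS (0.543, 0.409 to 0.725), and *Amot* (0.646, 0.464 to 0.906). The ratio in below-limit and *Mesp* cells was 0.283 and 0.513 for *Amotl2*, 0.410 and 0.652 for *Ajuba*, and 0.585 and 0.609 for *Wwc2*. That of *Amot* was 0.902 and 0.542, so 3 of the 4 were past the fold in both of these populations and *Amot* in the *Mesp* cells. *Wwc2* was short of the fold with at least 1 UMI of *T* and *Mixl1* (0.704). *Amot* was short of it with at least 5 UMIs of *Pou5f1* (0.824), with the ranges of *T* and *Mixl1* weighted equally (0.684) and in *Xist*-bearing cells (0.779), and stood at 0.258 in Y-bearing cells. Among 15 core Hippo genes, 2 were past the fold and lower (against 2.87% of all genes). They were *Lats1*, one of the kinases that inactivate YAP1, at 0.524 (0.359 to 0.773), and *Wwc2*, which is in both lists. The TEAD factor *Tead1* stood at 0.835 (0.674 to 1.04). The matricellular genes *Ccn1* and *Ccn2*, textbook YAP targets, were close to absent, with 6 and 12 UMIs of *Ccn1* (0.675, 0.235 to 2.19) and 10 and 32 of *Ccn2* (1.08, 0.518 to 2.46), and *Ankrd1* had 0 in both libraries. *Crim1*, a member of the YAP target list also under the minimum, went the other way, with 4 and 49 UMIs (2.22 and 9.20 CPM).

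The promoters of *Amotl2*, *Ajuba* and *Wwc2* are shown because YAP1 acts through the TEAD factors, and these feedback genes were lower in each population. They are RefSeq windows of 300 bases on GRCm38.p6, from 250 before to 50 after a gene start, written 5′ to 3′ on the strand of the gene, with matches to the TEAD letters GGAATG or their reverse complement CATTCC in capitals. They lie at chr9:102717554-102717853 (plus strand, *Amotl2*), chr14:54577612-54577911 (minus strand, *Ajuba*) and chr8:47990495-47990794 (minus strand, *Wwc2*).
Amotl2: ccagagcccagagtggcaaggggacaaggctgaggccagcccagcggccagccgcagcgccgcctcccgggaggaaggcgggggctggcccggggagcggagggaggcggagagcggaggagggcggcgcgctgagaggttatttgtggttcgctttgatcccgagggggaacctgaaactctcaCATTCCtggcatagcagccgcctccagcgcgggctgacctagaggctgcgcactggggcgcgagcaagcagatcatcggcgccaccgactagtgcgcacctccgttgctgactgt
Ajuba: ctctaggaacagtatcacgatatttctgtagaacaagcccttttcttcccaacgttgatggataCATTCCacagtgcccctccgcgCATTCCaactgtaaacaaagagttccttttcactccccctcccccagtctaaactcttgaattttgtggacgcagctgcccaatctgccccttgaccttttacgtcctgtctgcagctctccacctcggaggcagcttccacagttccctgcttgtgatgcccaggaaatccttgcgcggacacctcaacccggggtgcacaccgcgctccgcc
Wwc2: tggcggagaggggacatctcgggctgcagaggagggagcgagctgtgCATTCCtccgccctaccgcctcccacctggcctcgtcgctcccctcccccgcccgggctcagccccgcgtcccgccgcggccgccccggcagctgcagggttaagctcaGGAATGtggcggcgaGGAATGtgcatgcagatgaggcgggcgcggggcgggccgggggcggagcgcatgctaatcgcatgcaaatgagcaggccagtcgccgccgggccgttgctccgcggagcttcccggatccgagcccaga
The window of *Amotl2* had 1 match, that of *Ajuba* 2 and that of *Wwc2* 3. A window was found for 287 of the 399 genes named by rule. Of 32851 such windows in all, 14.7% held at least 1 match, and those of *Lats1* and *Amot* held none. A match describes the letters only, since binding was not measured.

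Of the streak markers, *Fst* was past the fold and *Fgf8* and *Wnt8a* were not. The ratio of *Fst* (chr13:114452290-114458951, minus strand) was 0.572 (0.528 to 0.619). Single cells ran from 103 to 1262 CPM with a median of 493 in the control, and from 0 to 871 CPM with a median of 302 in the *Yap1* cKO. The medians were apart while the ranges overlapped widely. With at least 1 UMI of *T* and *Mixl1* the ratio was 0.680, just short of the fold. *Fgf8* (chr19:45736798-45742915, minus strand) went the other way, at 434 CPM (404 to 466) in the control against 573 CPM (553 to 594) in the *Yap1* cKO, a ratio of 1.32 (1.22 to 1.43). Single cells ran from 189 to 837 CPM in the control and from 29.3 to 1400.1 CPM in the *Yap1* cKO, so the highest and the lowest cells were both of the *Yap1* cKO. In Y-bearing cells alone the ratio of *Fgf8* was 0.740. *Wnt8a* had 37 and 79 UMIs, a ratio of 0.721 (0.482 to 1.1) whose interval holds 1.

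The ratio of *Fst* lay on the other side of 1 in the neighbouring cells. It was 1.59 (1.47 to 1.72) in below-limit cells and 1.15 (1.07 to 1.25) in *Mesp* cells, against 0.572 in PS cells. *Eomes* gave values in the same order, at 1.23 in below-limit cells, 0.708 (0.647 to 0.776) in PS cells and 0.996 in *Mesp* cells. *T* and *Mixl1* chose the cells, and the *Yap1* cKO had a larger part of its PS cells at exactly 2 UMIs (15 of 55, against 2 of 25).

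Among 10 streak and mesoderm transcription factors with enough UMIs, 10 had a ratio below 1, with a median of 0.750 against 0.978 for all genes. *Sp5*, *Snai1* and *Lhx1* were among those at most 1/1.5 of the control. *Sp5* (chr2:70474923-70477729, plus strand) had 189 UMIs in 23 of 25 control PS cells, or 105 CPM (90.7 to 121). It had 218 UMIs in 40 of 55 *Yap1* cKO PS cells, or 40.9 CPM (35.7 to 46.7), a ratio of 0.389 (0.319 to 0.476). The median cell held 77.1 CPM in the control against 18.8 CPM in the *Yap1* cKO, and the highest cells 371 and 337 CPM, so the libraries parted in the middle of the range more than at its top. The ratio of *Sp5* was 0.845 (0.761 to 0.938) in *Mesp* cells, while below-limit cells held only 27 and 32 UMIs. *Snai1*, which helps to start the epithelial to mesenchymal transition, stood at 0.584 (0.411 to 0.839), while *Xist*-bearing cells alone gave 0.691, short of the fold, and Y-bearing cells 0.252.

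The ratio of *Lhx1*, a LIM homeobox gene of anterior mesendoderm, rested on 1 cell. That control cell held 67 of the 75 control UMIs of *Lhx1*, and also 22 of the 43 control UMIs of *Cyp26a1*, a retinoic acid hydroxylase. With it the ratio of *Lhx1* was 0.225, and without the cell with the most *Lhx1* in each library it was 1.49.

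The promoter of *Sp5* is shown because *Sp5* is a Wnt target, was the gene furthest above the below-limit cells, and was among the lowest in the *Yap1* cKO. It lies at chr2:70474673-70474972 (plus strand, GRCm38.p6, RefSeq), and capitals mark the TCF letters CTTTGA or their reverse complement TCAAAG.
Sp5: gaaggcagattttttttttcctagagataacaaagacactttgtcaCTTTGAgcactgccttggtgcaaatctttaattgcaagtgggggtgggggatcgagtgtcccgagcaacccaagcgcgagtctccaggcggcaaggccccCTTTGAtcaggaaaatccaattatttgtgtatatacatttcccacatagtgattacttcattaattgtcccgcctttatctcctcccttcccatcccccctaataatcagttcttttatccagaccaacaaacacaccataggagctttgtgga
It held 2 matches, where 16% of the windows held at least 1, and no match to GGAATG or to the T-box letters TCACACCT, which 1.28% of windows held on either strand. The windows of *Axin2* and *Wnt3* held no CTTTGA on either strand.

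To compare the libraries at like levels of *T* and *Mixl1*, the 80 PS cells were parted at 43.8 and 104 CPM of both genes together into a low, a middle and a high range. The control had 5, 10 and 10 cells in these ranges and the *Yap1* cKO 22, 16 and 17. Since *T* and *Mixl1* also chose the cells, values by range are a description and lend no support to the ratios above. *Fst* stood at 434, 586 and 583 CPM in the control against 261, 339.8 and 370.4 CPM in the *Yap1* cKO, from the low to the high range. *Sp5* stood at 98.3, 58.2 and 161 CPM and 26.3, 38.8 and 66.3 CPM. Both genes were lower in the *Yap1* cKO in each of the 3 ranges. *Eomes* stood at 309, 418 and 411 CPM and 227, 266 and 366 CPM, and *Fgf8* at 357, 422 and 496 CPM and 400.2, 679.6 and 728 CPM. *Eomes* was lower and *Fgf8* higher in the *Yap1* cKO in each range. With each range weighted equally, the ratio was 0.606 for *Fst*, 0.414 for *Sp5* and 1.42 for *Fgf8*.

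**Figure D3:**
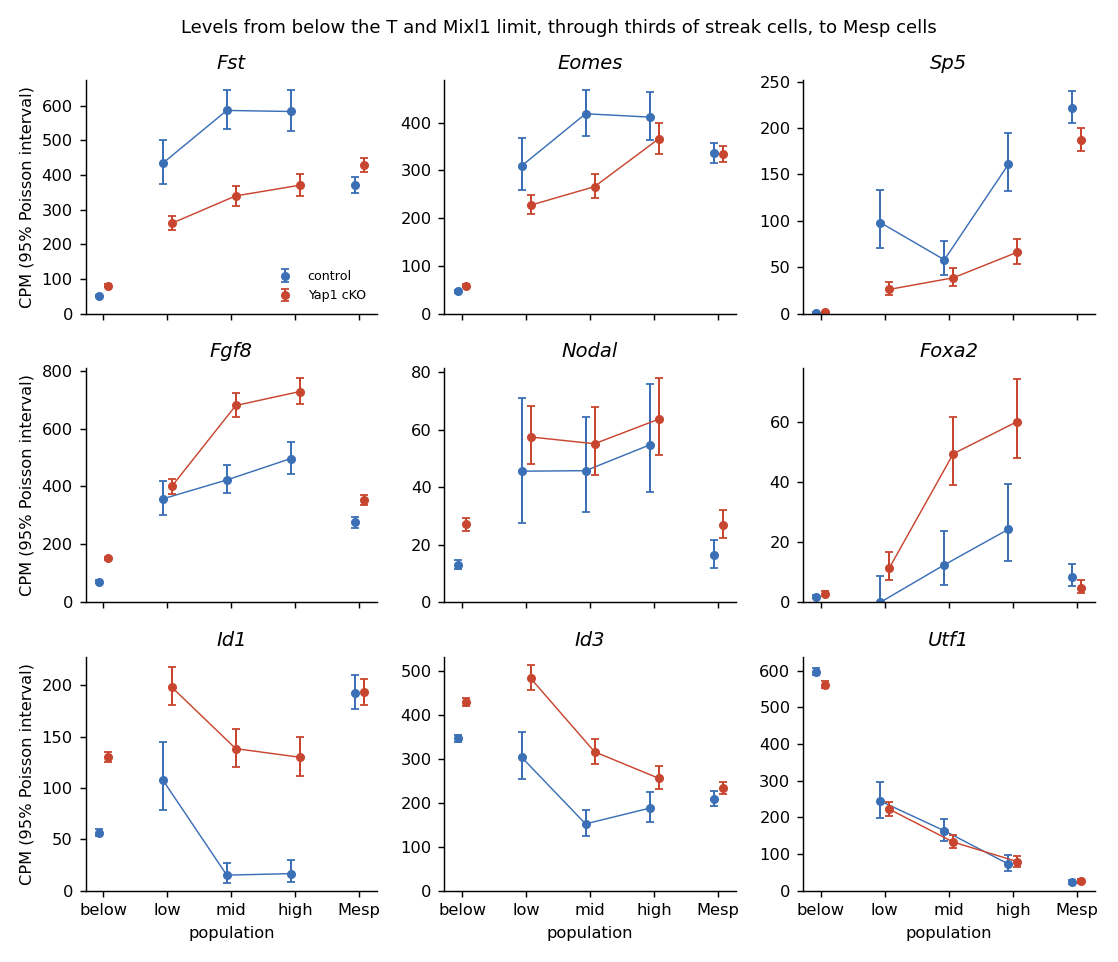
CPM (y axis, from 0) of 9 genes in below-limit cells, in the low, middle and high range of PS cells by *T* and *Mixl1*, and in *Mesp* cells (x axis), in 1 colour for each library, with bars for Poisson 95% intervals. *Fst* and *Sp5* are lower and *Fgf8* and *Id1* higher in the *Yap1* cKO in each of the 3 ranges, while *Utf1* steps down from below-limit to *Mesp* cells in both libraries.

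Genes of the anterior streak and definitive endoderm had no shared direction. Of 6 with enough UMIs, 1 was at least 1.5 times higher in the *Yap1* cKO (against 1.90% of all genes), *Foxa2*. Another 2 were at most 1/1.5 of the control (against 2.87%), *Trh* and *Lhx1*, the latter by 1 cell. *Foxa2* reached the minimum only with the UMIs of the *Yap1* cKO, so the count is a description. The limit on *Noto*, *Chrd*, *Foxj1* and *Cer1* set aside 19 control and 14 *Yap1* cKO cells, and its part in these ratios was not tested. *Foxa2*, the forkhead factor of anterior streak and endoderm, had 25 UMIs in 12 of 25 control PS cells, or 13.9 CPM (9.0 to 20.5). It had 192 UMIs in 25 of 55 *Yap1* cKO PS cells, or 36.0 CPM (31.1 to 41.5), a ratio of 2.59 (1.70 to 4.11). At least 2 UMIs were held by 7 of 25 control cells (28.0%, 12.1 to 49.4) and 22 of 55 *Yap1* cKO cells (40%, 27.0 to 54.1), shares whose intervals overlap. After thinning, at least 1 UMI was held by 12.5% and 38.2% of PS cells, and by 0.556% and 1.96% of extraembryonic ectoderm cells. The highest cell held 77.3 CPM in the control against 172 CPM in the *Yap1* cKO. The direction was the opposite in Y-bearing cells (0.564) and when the rule was applied to thinned cells (0.772), and the ratio was larger with at least 5 UMIs of *Pou5f1* (5.28), with cells thinned (4.80) and in *Xist*-bearing cells (4.47).

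*Gsc* did not differ beyond counting error, at 48.4 and 51.3 CPM with a ratio of 1.06 (0.829 to 1.36). *Trh*, which codes for the precursor of thyrotropin-releasing hormone, had 352 and 587 UMIs, a ratio of 0.563 (0.492 to 0.644), while its ratio was 1.20 in below-limit cells. It was short of the fold with at least 1 (0.718) and 5 UMIs (0.770) of *T* and *Mixl1*, with at least 5 of *Pou5f1* (0.679) and in *Xist*-bearing cells (0.793). Of 14 posterior streak genes 1 had 100 UMIs, the ligand *Wnt5b*, with a ratio of 0.724 (0.510 to 1.04). *Evx1*, the homeobox gene of the posterior streak, had 18 and 73 UMIs (1.37, 0.809 to 2.44). *Tbx3*, a T-box factor, had 0 and 36 UMIs. After thinning it had a UMI in 0 of 24 control PS cells, which allows up to 14.2% (exact binomial), and in 4 of 55 *Yap1* cKO PS cells (7.27%), a difference not detectable at this depth. Extraembryonic ectoderm cells also carried it (8.33% and 16.7%) and give no background level for it. *Prdm1*, a zinc finger repressor known from germ cell precursors, had 0 and 21 UMIs. After thinning it had a UMI in 0 of 24 control and 9 of 55 *Yap1* cKO PS cells (16.4%, 7.77 to 28.8), and in 2.22% and 2.94% of extraembryonic ectoderm cells, and the intervals of the PS cells overlap, since 0 of 24 again allows up to 14.2%.

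Most Wnt and Nodal pathway genes with enough UMIs stayed within the fold, as did most genes of the transcriptome. Of 21 Wnt genes 1 passed the fold, *Sp5*, which was lower (against 2.87% of all genes), and the median ratio was 0.905. The ligand *Wnt3* stood at 1.24 (0.961 to 1.62), the target *Axin2* at 0.873 (0.694 to 1.11) and the amplifier *Rspo3* at 0.951 (0.682 to 1.35), with intervals that hold 1. *Frzb*, which is outside that list, had 88 and 132 UMIs, a ratio of 0.506 (0.384 to 0.671). Of 10 Nodal pathway genes 1 passed the fold, *Smad7*, which was higher (against 1.90% of all genes). With 1 gene in each list, these counts are not read as a result about the pathways. *Smad7*, an inhibitory SMAD that TGF-beta and BMP signals induce, stood at 30.6 CPM in the control against 54.3 CPM in the *Yap1* cKO (1.77, 1.33 to 2.41). It had 55 and 289 UMIs and reached the minimum only with the latter. In the control 1 cell held 21.8% of its UMIs, and with cells thinned the ratio was 1.37. *Nodal* stood at 48.9 and 58.4 CPM (1.19, 0.939 to 1.53) in PS cells, and its ratio in below-limit cells was 2.07. *Tdgf1*, the co-receptor Cripto, stood at 342 and 229 CPM (0.669, 0.607 to 0.738), just short of the fold.

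Of 13 FGF and ERK genes 1 passed the fold and was lower (against 2.87% of all genes), the ERK inhibitor *Spred1* (0.665, 0.517 to 0.859). It was short of the fold by many other choices, with values up to 0.800 in *Xist*-bearing cells. Of the ERK targets, *Dusp6* stood at 0.949 (0.731 to 1.24), *Etv5* at 1.15 (0.895 to 1.5) and *Etv4* at 0.717 (0.504 to 1.03), with intervals that hold 1. *Fgf5*, a ligand of the primed epiblast, stood at 0.794 (0.701 to 0.902).

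In the BMP pathway the genes past the fold and higher were *Id* genes, which code for helix-loop-helix inhibitors that BMP signalling switches on. Of 12 genes with enough UMIs, 3 were at least 1.5 times higher in the *Yap1* cKO (against 1.90% of all genes), *Id1*, *Id2* and *Id3*. Another 1 was at most 1/1.5, the BMP inhibitor *Fst*. In the control *Id1* and *Id2* had 67 and 42 UMIs and reached the minimum only with those of the *Yap1* cKO, so the count is a description. Among *Xist*-bearing cells *Id2* and *Id3* were short of the fold. *Id1* (chr2:152736251-152737410, plus strand) had 67 UMIs in 17 of 25 control PS cells, or 37.3 CPM (28.9 to 47.3). It had 861 UMIs in 45 of 55 *Yap1* cKO PS cells, or 162 CPM (151 to 173), a ratio of 4.34 (3.38 to 5.65). Single cells ran from 0 to 233 CPM with a median of 16.8 in the control and from 0 to 804 CPM with a median of 43.5 in the *Yap1* cKO. The libraries overlapped at the low end and parted at the high end: at least 10 UMIs, a number chosen after the values were seen, were held by 2 of 25 control cells (8.0%, 0.984 to 26) and 21 of 55 *Yap1* cKO cells (38.2%, 25.4 to 52.3). In the control 1 cell held 23 of the 67 UMIs, and without the highest cell of each library the ratio was 5.59. The size of the ratio moved with the limits: it was 1.44, short of the fold, without the *Igfbp3* limit, 2.28 when the rule was applied to thinned cells, and 10.3 with at least 5 UMIs of *T* and *Mixl1*. After thinning, at least 1 UMI of *Id1* was held by 62.5% of control and 60% of *Yap1* cKO PS cells, so the libraries were close in the share of cells with a UMI. Extraembryonic ectoderm cells also carried *Id1* (75.6% and 92.2%) and give no background level for it.

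*Id3* stood at 201 CPM (181 to 223) in the control against 372 CPM (356 to 389) in the *Yap1* cKO, a ratio of 1.85 (1.66 to 2.08). *Id2* had 42 and 258 UMIs, a ratio of 2.07 (1.49 to 2.95). With cells thinned the ratio of *Id2* was 1.23. The neighbouring cells gave other values: the ratio of *Id1* was 2.29 (2.14 to 2.46) in below-limit cells and 1.0 (0.901 to 1.12) in *Mesp* cells. Within the control, *Id1* in PS cells was 0.658 (0.506 to 0.842) of the below-limit level, and within the *Yap1* cKO 1.24 (1.15 to 1.34) times it, so the libraries lay on opposite sides. From the low to the high range of *T* and *Mixl1*, *Id1* stood at 108, 15.2 and 16.7 CPM in the control against 198, 138 and 129.9 CPM in the *Yap1* cKO. The gap was wider in the middle and high ranges than in the low one.

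The BMP ligands were scarce in PS cells, with 8 and 11 UMIs of *Bmp4* and 2 and 10 of *Bmp2*, which does not allow a comparison at this depth. *Msx2*, a homeobox target of BMP, had 2 and 46 UMIs, the latter from 7 *Yap1* cKO cells. After thinning it had a UMI in 0 of 24 (up to 14.2%) and 5 of 55 PS cells (9.09%), a difference not detectable at this depth. Extraembryonic ectoderm cells carried it too (24.4% and 33.3%) and give no background level. *Smad6*, an inhibitory SMAD of the pathway, had 21 and 49 UMIs (0.788, 0.464 to 1.38).

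**Figure D4:**
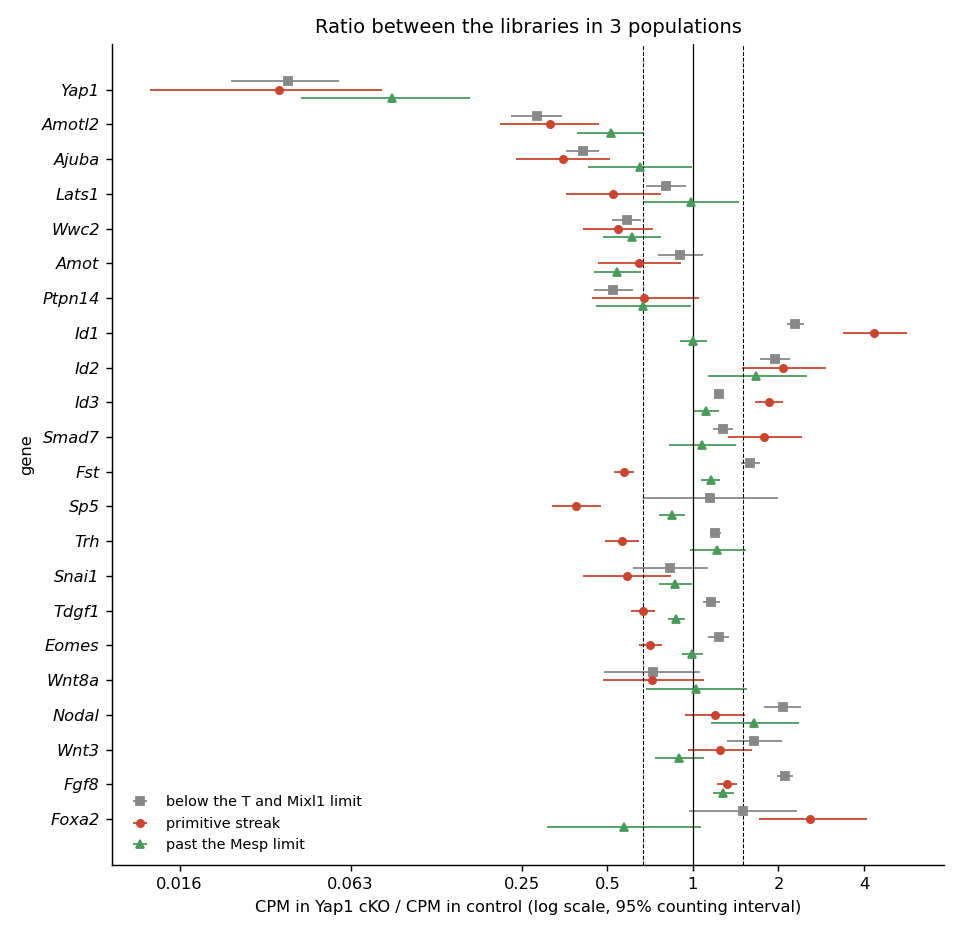
Ratio of the CPM in *Yap1* cKO to control (x axis, log scale) of 22 genes (y axis) in below-limit cells (squares), PS cells (circles) and *Mesp* cells (triangles), with exact conditional 95% intervals and dashed lines at 1.5 times and 1/1.5. *Yap1*, *Amotl2* and *Ajuba* lie left of 1 in each population, *Fst* lies left of 1 in PS cells (0.572) and right of it in the others, and *Id1* lies furthest right in PS cells (4.34).

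Genes of the epithelial to mesenchymal transition were read as 2 lists, against 1.90% of all genes higher and 2.87% lower. Of 12 epithelial genes 0 passed the fold, with a median ratio of 0.954, and *Cdh1* stood at 97.9 and 92.6 CPM (0.946, 0.794 to 1.13). Of 6 mesenchymal genes, 2 were at most 1/1.5 of the control, *Snai1* and *Fn1*, which codes for fibronectin (0.614, 0.485 to 0.782). Another 1 was at least 1.5 times higher, *Mmp14*, a membrane-bound metalloproteinase (1.6, 1.09 to 2.40). It had 33 and 156 UMIs and reached the minimum only with those of the *Yap1* cKO. In the control 1 cell held 23.4% of the UMIs of *Fn1*, and without the highest cell of each library its ratio was 0.748, short of the fold. *Mmp14* was short of it with cells thinned (1.42) and stood at 0.862 in Y-bearing cells. Of 23 pluripotency and epiblast genes with enough UMIs, the median ratio was 0.870. *Nanog* stood at 113 and 95 CPM (0.841, 0.714 to 0.995), *Sox2* at 41.7 and 51.6 CPM (1.24, 0.956 to 1.62) and *Utf1* at 149 and 157 CPM (1.05, 0.914 to 1.21). Of these, *Nanog* had an interval that leaves out 1, by a narrow margin.

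**Figure D5:**
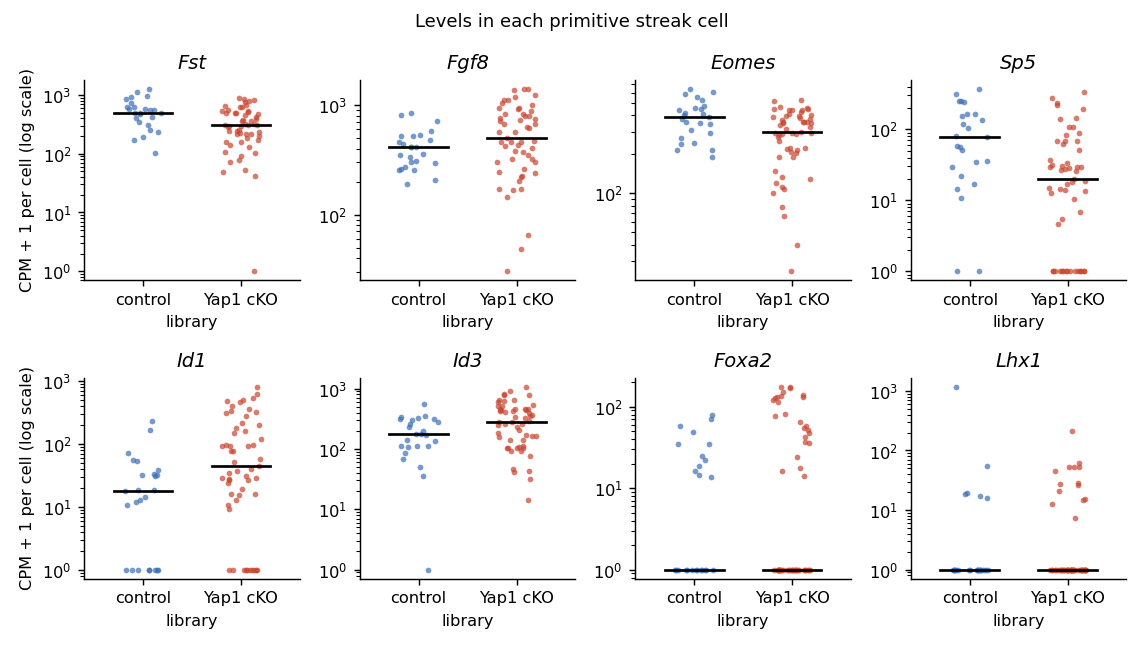
CPM + 1 of 8 genes in each PS cell (y axis, log scale, 1 point a cell) of the control and *Yap1* cKO library (x axis), with a line at the median. The cells of the libraries overlap in each gene, the median of *Fst* is 493 CPM in the control against 302 CPM in the *Yap1* cKO, and 1 control cell stands alone at the top of *Lhx1*.

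Genes were also named by the size of the ratio, whether in a list or not, given the same direction in Y-bearing and *Xist*-bearing cells and no cell with over 20% of the UMIs of its library. The 10 lowest were *Amotl2*, *Nefm*, *Ajuba*, *Sema3e*, *Sp5*, *Rab8b*, *Pim1*, *Rbms1*, *Herpud2* and *Dcc*. *Nefm*, a neurofilament subunit, had 90 and 89 UMIs, a ratio of 0.334 (0.246 to 0.453). *Sema3e*, a secreted semaphorin, had 125 and 144 UMIs, a ratio of 0.389 (0.304 to 0.498). *Pim1*, a kinase that JAK and STAT signals induce, stood at 0.418 (0.305 to 0.573), and *Rab8b*, a GTPase of membrane traffic, at 0.405 (0.291 to 0.564). In Y-bearing and *Xist*-bearing cells *Pim1* stood at 0.783 and 0.258 and *Herpud2* at 0.164 and 0.768. In *Mesp* cells 8 of the 10 also had a ratio below 1, and *Rab8b* (1.08) and *Dcc*, a netrin receptor (1.20), did not.

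The 10 highest were *2410131K14Rik*, *Glis1*, *Trappc9*, *Phlda3*, *Cep55*, *Gstt2*, *Avpi1*, *Phactr1*, *Thsd7a* and *Osbp*. *2410131K14Rik* had 11 UMIs in 8 of 25 control PS cells and 129 in 45 of 55 *Yap1* cKO PS cells, a ratio of 3.96 (2.14 to 8.13), while its ratio was 0.901 in below-limit cells and 0.864 in *Mesp* cells. *Glis1*, a zinc finger factor, had 19 and 144 UMIs (2.56, 1.58 to 4.37). *Phlda3*, a p53 target that restrains AKT, had 15 and 95 UMIs (2.14, 1.23 to 3.97). These 10 genes had between 11 and 29 UMIs in the control PS cells, which leaves their ratios wide. When the rule was applied to thinned cells, the ratio of *2410131K14Rik* was 1.65, and those of *Trappc9* (1.37), *Phlda3* (1.28), *Cep55* (1.09), *Phactr1* (1.04), *Thsd7a* (1.18) and *Osbp* (1.32) were short of the fold. With at least 1 UMI of *T* and *Mixl1*, that of *2410131K14Rik* was 1.75, and with cells thinned, that of *Gstt2* was 1.42. *Glis1* stood at 1.52 among *Xist*-bearing cells and 5.29 among Y-bearing ones.

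Since the libraries differ in sex make-up, ratios were also taken within Y-bearing cells (12 control, 8 *Yap1* cKO) and *Xist*-bearing cells (11 and 47). In this order, the ratio was 0.380 and 0.594 for *Fst*, 0.224 and 0.335 for *Sp5*, 0.443 and 0.807 for *Eomes*, 0.513 and 0.224 for *Amotl2* and 0.653 and 0.270 for *Ajuba*. It was 9.53 and 2.83 for *Id1*, 5.38 and 1.23 for *Id2*, and 3.89 and 1.23 for *Id3*. The *Id* genes kept their direction and were further apart in the Y-bearing cells, and in the *Xist*-bearing cells *Id2* and *Id3* stayed under the fold. Which embryo a cell came from is not known, and the part of single embryos in these values was not tested.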

How the data were processed

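Single-cell RNA was measured in 1 droplet library per genotype. Per the labels, the submitters ran Cell Ranger 7.1.0 on the mm10 build, and the authors deposited a filtered matrix of raw counts (UMIs per gene and cell barcode, 32285 genes) for each library, with no cell annotation. The SoupX correction and clustering of the study were not repeated. Cells were chosen by the rule given above, with scripts in Python 3.11.15 (numpy 2.4.6, scipy 1.17.1, pandas 2.3.3), and scrublet was run through scanpy 1.11.5. The members and gene lists were chosen with earlier results of these data known.

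UMIs were summed over the PS cells of a library and divided by their total. With 1 library per genotype no test was made. Levels have exact Poisson, ratios exact conditional binomial and shares exact binomial (Clopper-Pearson) 95% intervals, which cover counting error only. The scripts were tested on simulated data. A cell was Y-bearing or *Xist*-bearing from 2 UMIs of such genes. Cells were thinned at random (seed 1) to 30000 UMIs.

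Genes named were the members of 24 lists, the 10 highest and 10 lowest ratios under the conditions given above, and the 10 genes furthest above and below each neighbouring population. *Lhx1*, *Cul9* and *Ankrd36* were singled out after their values were seen. Positions of genes were looked up by gene ID in GENCODE M21 (GRCm38), and promoters in RefSeq. Alternatives varied the cell limits, scaling, weighting, depth, UMI minimum and fold. The values of some members of the lists are not reported here.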

Additional observations from a re-analysis of the deposited data

Results flagged for a closer look

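Barcodes with 2000 to 4999 detected genes were left out of the PS cells by the gene minimum, and a few of them met every other limit, a signal in barcodes that entered only the alternative with a minimum of 2000 detected genes. There were 4 of 300 such barcodes in the control library (1.33%, exact binomial 95% interval 0.364 to 3.38) and 3 of 413 in the *Yap1* cKO library (0.726%, 0.150 to 2.11). Together they held 45437 UMIs in the control against 55793 in the *Yap1* cKO. *Fgf8* had 11 and 39 UMIs in them, and *Fst* 2 and 7. *Yap1* had 0 UMIs in both.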

How the results depend on the processing

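No paired analysis was possible because each genotype has 1 library and both carry the same replicate number. The number of PS cells was 39 and 82 (control and *Yap1* cKO) with at least 1 UMI of *T* and *Mixl1*, 16 and 31 with at least 5, and 31 in the *Yap1* cKO when the rule was applied to thinned cells. Of 6900 genes, 421 higher and 707 lower in the *Yap1* cKO were past a fold of 1.3, and 16 and 20 past a fold of 2. Genes past 1.5-fold, in the same order, numbered 732 and 858 of 10855 tested with a minimum of 20 UMIs. They numbered 8 and 12 of 2315 with a minimum of 500, and 77 and 71 of 3686 with thinned cells. They numbered 87 and 246 in Y-bearing and 298 and 176 in *Xist*-bearing cells, of 3340 and 5772 genes tested, so the split turned with the cells used. The higher genes were 39.8% of those past the fold, and 50.6% after division by the median ratio. Genes past 2-fold against below-limit cells numbered 182 higher and 318 lower with a minimum of 20 UMIs and 15 and 31 with 500, and the lower ones 50 and 183 with at least 1 and 5 UMIs of *T* and *Mixl1*. The UMI minimum sets how many genes are tested, so these numbers are a description. Ratios that crossed 1 were *Cyp26a1* (1.98 with *Pou5f1* of at least 5 UMIs, 1.64 in Y-bearing cells), *Fgf8* (0.740, Y-bearing), *Foxa2* (0.772 with the rule on thinned cells, 0.564 Y-bearing), *Ifitm3* (0.966, cells thinned), *Lhx1* (1.49 with *Pou5f1* of at least 5 UMIs and without its highest cells), *Mmp14* (0.862, Y-bearing), *Thsd7a* (0.968) and, against below-limit cells in the control, *Tas1r1* (1.38), both with at least 1 UMI of *T* and *Mixl1*. *Id1* kept its direction in each setting but was short of the fold without the *Igfbp3* limit (1.44). The causes were not tested. Leaving out the *Igfbp3* limit and weighting the ranges of *T* and *Mixl1* equally were chosen after seeing the data. The control PS cells, 25 in number, limit the depth of every ratio.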

Other observations

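Some gene groups outside the streak programme also held members past the fold. Of 9 p53 targets with enough UMIs, 3 were at least 1.5 times higher in the *Yap1* cKO PS cells (against 1.90% of all genes) and 0 lower, with a median ratio of 1.07. They were the cell cycle inhibitor *Cdkn1a* (1.72, 1.19 to 2.54), *Ccng1* (1.51, 1.03 to 2.26) and *Phlda3* (2.14, 1.23 to 3.97). In this order they had 35, 34 and 15 UMIs in the control against 178, 152 and 95 in the *Yap1* cKO. All 3 thus reached the minimum only with the UMIs of the *Yap1* cKO, and their number is a description. When the rule was applied to thinned cells all 3 were short of the fold, at 1.41, 1.14 and 1.28. Among *Xist*-bearing cells *Cdkn1a* stood at 1.15 and among Y-bearing ones at 3.0, and with at least 5 UMIs of *T* and *Mixl1* the ratio of *Ccng1* was 1.05. *Cdkn1a* was also higher in below-limit cells (2.52) and *Mesp* cells (1.84). Of 16 genes of glucose uptake and glycolysis, 1 was past the fold and lower (against 2.87% of all genes), the glucose transporter *Slc2a3* (0.546, 0.447 to 0.668). In this list 14 had a ratio below 1, with a median of 0.885 against 0.978 for all genes. Since the median of all genes was also below 1, the 14 are a description. Of 3 Notch pathway genes, 2 were at most 1/1.5 of the control (against the same 2.87%), the target *Hes1* (0.647, 0.549 to 0.763) and the DNA-binding partner *Rbpj* (0.654, 0.531 to 0.807), which were short of the fold by several other choices (0.721 for *Hes1* with each cell counted once, 0.766 for *Rbpj* with the rule on thinned cells). Of 2 germ cell markers with enough UMIs, *Ifitm3* was at least 1.5 times higher (1.81, 1.17 to 2.93, against 1.90% of all genes). It was not when cells were thinned (0.966). It had 24 UMIs in the control against 129 in the *Yap1* cKO, and reached the minimum only with the latter.

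Apart from *Lhx1*, 2 genes outside the naming rule were singled out after their values were seen. *Ankrd36* had 7 UMIs in control against 108 in *Yap1* cKO PS cells, a ratio of 5.21 (2.44 to 13.3), with 28.6% and 22.2% of its UMIs in 1 cell of each library. Among *Xist*-bearing cells it was 10.2 and among Y-bearing ones 0.705. *Cul9* had 69 and 51 UMIs, a ratio of 0.25, with 87.0% of its control UMIs in 1 cell, and was 0.0961 and 2.11 by sex group in the same order. Both ratios thus crossed 1.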
